A study of Mus musculus with 48 samples.

Results

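Collagen and laminin chains were followed through 13 sorted cell populations of the mouse pancreas. The genes were taken by name: every gene whose array probe carries a single symbol of the form Col, number, a, number or Lam, a, b or c, number. This gave 52 of the 18194 genes on the array with such a probe, 42 collagen chains and 10 laminin chains, and where a gene had several probes, the brightest on average across the 48 arrays stood for it. Of these, 45 exceeded a linear value of 100 on at least 1 array and were tested. The 7 that did not are Col10a1, Col17a1, Col24a1, Col4a3, Col6a4, Col6a5 and Col8a1, and nothing more is said of their levels.

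Collagens are triple helices of 3 alpha chains, and the chain that a gene encodes decides which helix it can join. The fibrillar collagens (type I from Col1a1 and Col1a2, type III from Col3a1) give tissue its tensile strength and are the main product of mesenchymal cells, while collagen IV forms the sheet of the basement membrane under epithelia and around vessels. Laminins are cross-shaped trimers of an alpha, a beta and a gamma chain that polymerise in the same membrane and are bound by integrins on the cell surface. In the pancreas, laminins line the embryonic epithelium, and the islet's basement membranes lie along its capillaries.

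RNA was amplified from cells sorted by flow cytometry and hybridised to Affymetrix mouse arrays, with 3 to 5 arrays per population. The labels give CD-1 as the strain of all populations and wild type as the genotype of all but 1. Progenitors at E11.5 (n = 4) came from the dorsal pancreas and were sorted by a Sox9-eGFP transgene. Its eGFP can persist in descendants of the cells that made it. Progenitors (n = 3), acinar cells (n = 3) and endocrine progenitors (n = 3) at E15.5 came from embryos with a Neurog3-eGFP transgene, separated with antibodies that included CD49f, the integrin alpha 6 chain and itself a laminin receptor. Neurog3-null cells (n = 4) were the eGFP+ cells of embryos with eGFP in place of both copies of Neurog3, the gene that commits cells to the endocrine fate. Their stage label reads E15.5 although their titles read E1.5. Beta cells were sorted by a MIP-GFP transgene at E15.5 (n = 4), E17.5 (n = 3), P0 (n = 3), P15 (n = 4) and at 8 to 12 weeks (adult, n = 4). Alpha cells were sorted by a Glucagon-Venus transgene at P0 (n = 4) and as adults (n = 5), and adult duct cells by CD133 (n = 4). The study's text gives P1 where the titles read P0. Pancreata were pooled for the embryonic and P0 sorts. Beta and alpha cell replicates from P15 and adult pancreata each held at least 3 male mice. The embryonic tissue was dissociated with trypsin or a like enzyme, the P0 tissue with collagenase and dispase and the older tissue with collagenase. Age and enzyme therefore cannot be told apart from E17.5 to P0 or from P0 to older ages in the beta and alpha series. The enzyme was the same at E15.5 and E17.5, and at P15 and in adults. Between E11.5 and E15.5 progenitors, stage, dissected part, enzyme and sort cannot be told apart. The same holds for age, enzyme and sort between E15.5 progenitors and adult duct cells. Nothing in the labels ties the arrays of a group to separate litters, so p-values measure the spread between these arrays.

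The promoters of a few chains are shown because the chains fell together between P0 and P15 in beta cells. Sequences are from RefSeq (GRCm38.p6), 5′ to 3′ on the plus strand, up to the base before the first annotated start of the gene. Capitals mark a match on either strand to the motif CCAAT, to the letters GGGCGG, called the GC box, or to the letters TATAAA, called the TATA box. The Col1a2 window is chr6:4505368-4505617, that of Col3a1 is chr1:45311288-45311537, and that of Lamb1 is the stretch of 103 bases at chr12:31265043-31265145.
Col1a2: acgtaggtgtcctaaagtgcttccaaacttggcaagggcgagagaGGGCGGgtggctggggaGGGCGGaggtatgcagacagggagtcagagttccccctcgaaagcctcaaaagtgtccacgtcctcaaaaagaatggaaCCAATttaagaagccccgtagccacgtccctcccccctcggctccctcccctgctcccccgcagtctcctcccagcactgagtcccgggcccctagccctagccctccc
Col3a1: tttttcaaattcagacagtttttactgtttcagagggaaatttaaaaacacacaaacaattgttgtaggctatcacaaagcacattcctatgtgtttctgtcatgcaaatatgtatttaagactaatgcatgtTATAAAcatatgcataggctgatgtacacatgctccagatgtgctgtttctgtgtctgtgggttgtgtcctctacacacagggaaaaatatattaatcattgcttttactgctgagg
Lamb1: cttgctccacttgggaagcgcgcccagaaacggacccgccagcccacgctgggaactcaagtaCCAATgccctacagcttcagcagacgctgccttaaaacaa
Col1a2 held 1 CCAAT and 2 GC boxes in 250 bases, Col3a1 held 1 TATA box and neither other motif in 250, and Lamb1 held 1 CCAAT. Among 32851 upstream windows of 250 bases, CCAAT occurred in 33.9%, the GC box in 32.7% and the TATA box in 12.4%. The table had 42 such windows for 38 of the 52 members, of which 14 held CCAAT, 23 the GC box and 5 the TATA box. A match is a description of these letters and not of a factor bound there.

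Several members lie side by side in the genome. Col4a1 (chromosome 8, 11198423 to 11312889) and Col4a2 (chromosome 8, 11312805 to 11449287), the chains of the common collagen IV trimer, meet head to head, and Col4a6 and Col4a5 do so on chromosome X (141165403 to 141474095 and 141475370 to 141689236). Col3a1 (45311538 to 45349706) and Col5a2 (45374331 to 45503282) are neighbours on chromosome 1, as are Col6a2 (76595756 to 76623630) and Col6a1 (76708792 to 76726044) on chromosome 10. Col1a1 stands apart on chromosome 11 (94936224 to 94953042), and Lama1 on chromosome 17 (67697127 to 67822645).

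All values below are log2 signals after the study's normalisation (RMA), so that 1 unit is a 2-fold change and a linear 100 is 6.64. Differences are the second population minus the first. A member was called when its limma adjusted p over all 32043 probes tested was under 0.05 and its difference was at least 1. Where a mean lies at or under 6.64, the size of a difference is not exact. Levels of different genes come from different probes and are not set against each other. Comparisons that share a population share its arrays. Overlap of groups is described for named chains only, many of them picked for their large differences. Its share over all probes was not computed.

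Array medians ran from 6.58 to 6.88. The sorted cells carried the hormone and cell markers of their labels, although Gcg read 13.7 to 14.1 in the beta cell populations and Ins2 13.9 in adult alpha cells. Ptprc, the gene of the leukocyte antigen CD45, read 10.7 in Neurog3-null, 10.2 in adult beta and 10.6 in duct cells. Other cell types' markers, in lists without any collagen or laminin, moved between populations. The mean over 15 mesenchymal markers (Dcn, Pdgfra, Postn and others) was 5.13 to 6.41 in 9 populations, 7.54 in E15.5 beta cells, 8.95 in P0 alpha cells, 9.76 in E17.5 beta cells and 10.67 in P0 beta cells. The mean over 12 endothelial markers was 10.92 in P0 beta, 10.19 in E17.5 beta, 9.49 in P0 alpha and 9.16 in E15.5 acinar cells, and 5.02 to 7.19 elsewhere. The mean over 17 macrophage markers was above 11 in Neurog3-null cells (11.27), adult beta cells (11.11) and duct cells (11.38). The mean over 9 acinar markers was 13.28 in acinar cells and ran elsewhere from 8.63 in E11.5 progenitors to 12.32 in duct cells. It was 11.71 in P0 beta and 12.02 in adult beta cells. The mean over 6 duct markers was 12.64 in duct cells and ran elsewhere from 7.63 in adult alpha to 10.87 in adult beta cells. In a sorted bulk sample, fewer cells of another type and less RNA per cell cannot be told apart. Replicate 2 of the E15.5 progenitors and replicate 1 of the P15 beta cells stood apart from their groups in type I and III collagen, and values without them stand beside the results of these chains.

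**Figure D1:**
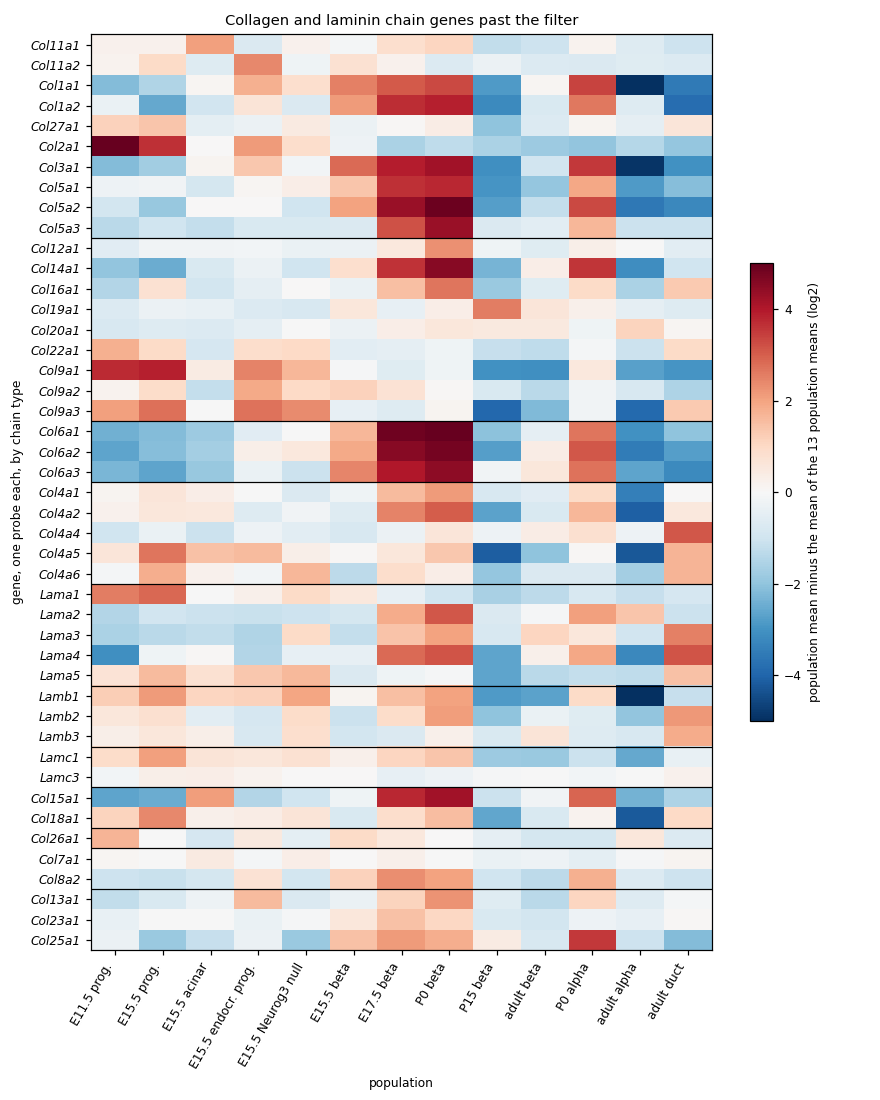
Population means of the 45 tested chains, each row centred on its own mean over the 13 populations (log2 difference, colour scale closed at 5 on either side), with lines between chain types. All 3 collagen VI rows, Col15a1 and 5 of 10 fibrillar rows (Col1a2, Col3a1, Col5a1, Col5a2 and Col5a3) are highest in P0 beta cells, while Col2a1, Col9a1 and Lama1 are highest in the progenitors.

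The chains fell into a few shapes, and the range of the 13 population means went from 0.76 to 9.09 log2 units. Type I and III collagen were highest in P0 islet cells. Col1a1, a chain of type I collagen, read 13.21, 13.24 and 13.37 on the 3 P0 beta arrays and 13.40, 13.17, 13.33 and 13.49 on the 4 P0 alpha arrays. It read 4.72, 4.15, 5.49, 4.87 and 5.69 in adult alpha cells, the lowest of the 13 populations. The P0 beta and P0 alpha arrays overlapped each other and lay above every array of the adult and P15 populations.

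Col3a1, the chain of type III collagen, had 13.97, 14.10 and 14.06 in P0 beta cells and 4.28, 5.00, 5.69, 5.07 and 4.71 in adult alpha cells. Col1a2, the partner of Col1a1, had 13.81, 13.97 and 13.94 in P0 beta cells. In adult alpha cells, however, Col1a2 read 8.92, 9.39, 9.73, 9.28 and 9.55, a mean of 9.37 against 6.24 in duct cells and 6.85 in P15 beta cells. Thus adult alpha cells held the lowest Col1a1 and Col3a1 of all populations but not the lowest Col1a2, and the other probes of Col1a2 showed adult alpha cells above duct and P15 beta cells too. E11.5 progenitors had Col1a2 at 9.67, 9.52, 9.84 and 9.78, above every array of the E15.5 progenitors, while their Col1a1 values of 7.96, 8.48, 6.90 and 7.88 overlapped those of the E15.5 progenitors.

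Col2a1, the cartilage collagen, had the opposite course. It read 12.24, 12.29, 12.12 and 12.35 in E11.5 progenitors and 10.81, 10.44 and 10.82 in E15.5 progenitors. From E17.5 on, its means lay between 5.06 and 5.78 in beta, alpha and duct cells alike, below the linear 100. Col9a1 and Col9a3, chains of collagen IX that sits on type II fibrils, shared the early peak: Col9a1 was 11.36, 11.29, 11.21 and 11.36 at E11.5 and 11.43, 11.31 and 11.66 in E15.5 progenitors. Col9a1 had a mean of 4.63 in duct cells. Col9a3, in contrast, read 9.94, 10.09, 9.82 and 10.28 in duct cells and had a mean of 4.81 in adult alpha cells.

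Lama1, the alpha chain of the early embryonic laminin, was likewise a progenitor gene. It read 9.34, 9.33, 9.18 and 9.35 at E11.5 and 9.51, 9.35 and 9.91 in E15.5 progenitors. It was 6.54, 6.11 and 6.30 in E17.5 beta cells and 5.59, 5.74 and 5.84 in P0 beta cells. The progenitor arrays lay above every array of the other 11 populations, the highest of which was a Neurog3-null array at 8.39.

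The common collagen IV chains and the widely used laminin chains were high in most populations. Col4a1 had population means from 10.86 to 13.77 in 12 populations and 8.23 in adult alpha cells, where it read 8.25, 7.88, 8.76, 8.25 and 8.00. Lamb1, the beta chain of most laminins, was 12.98, 12.86 and 13.11 in E15.5 progenitors and 5.51, 4.95, 5.59, 5.98 and 4.82 in adult alpha cells. Lamc1, the usual gamma chain, ran from 12.60 in E15.5 progenitors to 7.97 in adult alpha cells. Adult alpha cells were the lowest population for all 3 of these chains.

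Some chains had other courses. Col4a4, a chain of a specialised collagen IV, was highest in duct cells (8.58, 9.39, 9.77 and 8.43). Col20a1, a fibril-associated chain, was highest in adult alpha cells at 9.69, 8.98, 8.26, 8.73 and 8.81, and 3 of its 4 probes ranked that population first. Col19a1, another fibril-associated chain, was highest in P15 beta cells at 9.07, 8.42, 7.88 and 8.22, again with every probe. Col25a1, a transmembrane collagen, peaked in P0 alpha cells at 9.77, 10.29, 10.81 and 10.01, but its second probe was flat, with means between 5.65 and 6.54. Lamc3 and Col7a1 stayed within a range of 1 unit: population means of 5.20 to 5.96 for Lamc3 and 5.74 to 6.67 for Col7a1.

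**Figure D2:**
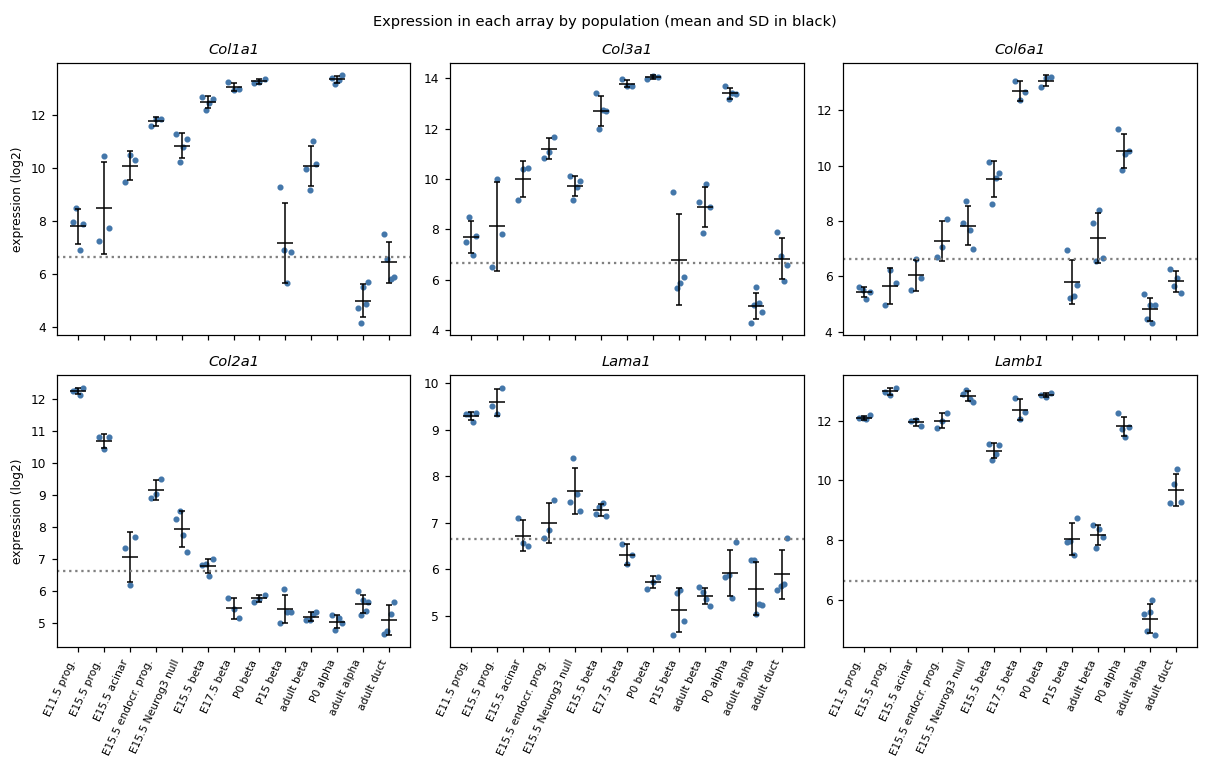
Log2 signal of Col1a1, Col3a1, Col6a1, Col2a1, Lama1 and Lamb1 on every array (dots) with the population mean and SD in black and the linear value of 100 as a dotted line. Col2a1 and Lama1 are highest in the progenitors, and the collagens I, III and VI in the E17.5 and P0 islet cells.

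Between E11.5 and E15.5 progenitors, 2 of 5 collagen IV chains and 2 of 10 laminin chains rose, and 2 of 10 fibrillar chains fell. Of the 45 members, 6 rose and 4 fell, where 11.3% of all probes were called, 4.96% higher and 6.37% lower. The member median was 0.35 and that of all probes -0.04. Lama4, the laminin alpha chain best known from vessel walls, rose from 5.55, 6.49, 5.99 and 5.53 to 8.35, 8.85 and 9.0. The difference was 2.84 ± 0.38 (SE; limma adjusted p = 2.1e-07). Col16a1, a fibril-associated chain, rose by 2.23, and the paired collagen IV chains Col4a5 and Col4a6 by 2.06 and 1.90. Col18a1, whose fragment is endostatin, and Lamc1 made up the 6 with 1.26 and 1.15.

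Col1a2 fell by 2.24 ± 0.50 (adjusted p = 6.7e-04, limma), from the E11.5 values above to 6.22, 9.21 and 6.95. Replicate 2 was the highest of these and still lay under all E11.5 arrays. Without replicate 2 the difference was -3.12. Col26a1, Col25a1 and Col2a1 fell too, with differences of -1.69, -1.56 and -1.56. The mesenchymal mean was 5.97 at E11.5 and 5.34 at E15.5, and 3 of 14 mesenchymal markers tested fell with none rising. Their part in the result was not tested.

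Col2a1, Col9a1, Col9a3 and Lama1 were lower in acinar cells at E15.5 than in E15.5 progenitors. Of the 45 members, 6 were higher and 15 lower in acinar cells, where 9.91% of all probes were called (4.08% higher, 5.83% lower), with medians of -0.12 for members and -0.01 for all probes. Col2a1 was 7.34, 6.21 and 7.70 in acinar cells, a difference of -3.61 ± 0.29 (limma adjusted p = 5.0e-12). Col9a1, Lama1 and Col9a3 fell too, with differences of -3.46, -2.87 and -2.77, and the acinar arrays lay below the progenitor arrays for all 4. Among the 10 laminin chains 4 were lower and none higher.

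The chain with the largest rise in acinar cells was Col15a1, a multiplexin of vessel basement membranes, from 5.34, 5.46 and 5.34 to 9.52, 10.55 and 9.73 (difference 4.55 ± 0.38, limma adjusted p = 8.7e-12). All 12 endothelial markers were also higher in the acinar arrays. The part of the endothelial markers in the result was not tested. Col5a2, Col3a1 and Col11a1 were higher by 1.92, 1.89 and 1.83. Of these, Col3a1 lost its call without progenitor replicate 1 or 3 or acinar replicate 2 or 3 (1.09 to 1.74, limma adjusted p of 0.13 to 0.36). The Col1a2 call was lost without the same arrays (0.98 to 1.49, adjusted p of 0.092 to 0.29). Without progenitor replicate 2, the array that stood apart, the difference was 2.84 for Col3a1, 2.47 for Col1a2 and 2.15 for Col11a1, against 1.60 for Col1a2 with all arrays.

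Endocrine progenitors were compared with progenitors of the same stage. In endocrine progenitors 13 of 35 collagen chains were higher, 7 lower and 15 not called, and of 10 laminin chains 5 were lower and 5 not called. That is 25 of 45 members, where 19.2% of all probes were called (9.07% higher, 10.1% lower), with medians of -0.07 and -0.00. Col1a1 read 11.57, 11.86 and 11.86 in endocrine progenitors against 7.26, 10.47 and 7.72 in progenitors. The groups did not overlap, although replicate 2 of the progenitors stood above the rest of its group, and the difference was 3.29 ± 0.60 (limma adjusted p = 2.8e-05). Without that array it was 4.28. Col1a2, Col3a1 and Col6a2 were higher by 3.23, 3.09 and 2.42 with all arrays and by 4.10, 4.03 and 2.91 without it.

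Col13a1, a transmembrane collagen, was higher by 2.37 and Col11a2, a minor fibrillar chain, by 1.44. Lama1 fell by 2.59 ± 0.31 (limma adjusted p = 8.8e-09). Col18a1, Col4a6 and Col27a1, a fibrillar chain, fell too, with differences of -2.00, -1.94 and -1.72. The Col15a1 call was lost without any single array of either group (0.94 to 1.08, limma adjusted p of 0.052 to 0.086), and that of Col4a5 without replicate 1 or 3 of either group (-0.83 to -1.12, adjusted p of 0.059 to 0.17). The mesenchymal mean was 6.41 in endocrine progenitors and 5.34 in progenitors, and 6 of 14 mesenchymal markers tested were higher with none lower. The part of the mesenchymal markers in the result was not tested.

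Neurog3-null cells were compared with endocrine progenitors. Neurog3 read 13.34, 13.41 and 13.44 in endocrine progenitors and 10.97, 10.29, 10.70 and 10.32 in the null cells, a difference of -2.83. The sources used here do not say whether its probe lies in the replaced part of the gene. In the null cells 9 of 35 collagen chains fell, 1 rose and 25 were not called, and of 10 laminin chains 4 rose and 6 were not called. Together 14 of 45 members were called, 31.1%, and 31.1% of all probes were called (14.7% higher, 16.4% lower), so the count itself does not set the members apart. Their median was 0.10 against -0.01 over all probes.

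Col11a2 read 8.91, 8.53 and 9.19 in endocrine progenitors and 6.11, 6.65, 6.11 and 6.19 in null cells, with a difference of -2.61 ± 0.19 (limma adjusted p = 1.7e-14). Col13a1 fell from 8.05, 7.91 and 8.47 to 5.28, 5.94, 5.72 and 6.29. The network-forming Col8a2 fell from 6.18, 6.40 and 7.08 to 4.74, 5.02, 4.74 and 5.12. None of these 3 chains had overlapping groups. The differences were -2.33 for Col13a1 and -1.65 for Col8a2, and Col25a1 fell as well (-1.54).

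Lama3, the alpha chain of the epithelial laminin that anchors cells through hemidesmosomes, rose from 4.29, 4.01 and 4.50 to 8.09, 6.43, 6.01 and 6.46. The difference was 2.48 ± 0.47 (limma adjusted p = 3.0e-05), and the array at 8.09 stood above the other 3. Its partner Lamb3 rose by 1.66 ± 0.30. Lamb2 rose by 1.75 ± 0.31, Col4a6 by 1.82 and Lama4 by 1.05. All 16 macrophage markers tested were higher in the null cells. So were 7 of 12 endothelial and 7 of 9 acinar markers, with none lower. The part of these markers in the result was not tested. Some calls were lost without single arrays. Col3a1 lost its call without any endocrine progenitor array or null replicate 2, 3 or 4 (-1.24 to -1.65, limma adjusted p of 0.051 to 0.14). Col5a2 did so without endocrine progenitor replicate 2 or 3 or null replicate 1, 2 or 3 (-0.64 to -1.12, adjusted p of 0.051 to 0.26), Col1a2 without endocrine progenitor replicate 3 (-1.24, adjusted p = 0.066) or null replicate 2 (-1.19, 0.060), and Lama4 without endocrine progenitor replicate 1 (0.78, 0.14) or 2 (1.01, 0.056).

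From endocrine progenitors to E15.5 beta cells the 3 collagen VI chains rose and Col2a1, Col9a1 and Col9a3 fell. Of the 45 members, 10 rose and 11 fell, where 9.44% of all probes were called (5.63% higher, 3.81% lower), with medians of 0.10 and 0.01. All 3 collagen VI chains, which form beaded microfibrils around cells, rose. Col6a3 rose by 2.74 ± 0.36 (limma adjusted p = 1.6e-07) and Col6a1 by 2.23, from 6.69, 7.05 and 8.08 to 10.12, 8.61, 9.56 and 9.75. Col5a2 rose by 1.99 and Col25a1 by 1.79.

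Col9a3 fell by 3.11 ± 0.31 (limma adjusted p = 5.2e-10), from 11.43, 11.56 and 11.24 to 8.81, 8.14, 8.04 and 8.21. Col9a1 and Col2a1 fell too (differences of -2.51 and -2.37), as did Lama5, the alpha chain of mature epithelial laminin (-2.10). These 4 chains had no overlap between groups. The mesenchymal mean was 6.41 in endocrine progenitors and 7.54 in E15.5 beta cells. Of the mesenchymal markers 8 of 14 tested rose and 1 fell. Of the endothelial markers 9 of 12 and of the macrophage markers 10 of 16 rose, and none fell. The part of these markers in the result was not tested. Calls of Col1a2, Col6a2 and Lama4 were lost without single arrays, for example without endocrine progenitor replicate 1 (1.35 with adjusted p = 0.10, 1.21 with 0.11 and 0.78 with 0.24, limma).

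In beta cells between E15.5 and E17.5, 21 of 45 members rose and Col2a1 alone fell, where 9.81% of all probes were called (7.3% higher, 2.51% lower). The member median was 0.91 and that of all probes -0.09. Of the collagen chains 16 of 35 rose, and of the laminin chains 5 of 10. Col15a1 went from 6.71, 7.63, 7.86 and 8.36 to 11.87, 10.998 and 12.05, a rise of 4.00 ± 0.35 (limma adjusted p = 5.6e-11). Col5a3, a minor fibrillar chain, rose by 3.87 ± 0.26, Lama4 by 3.24 and Col6a1 by 3.19. Col2a1 fell by 1.32 ± 0.27.

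Type I and III collagen were already high at E15.5, and these chains did not all pass the test at this step. Col1a1 read 12.69, 12.19, 12.46 and 12.59 at E15.5 and 13.24, 12.96 and 12.99 at E17.5, with a difference of 0.58 (limma adjusted p = 0.50). Its second probe rose over this step, from a mean of 11.46 to 13.45, by 1.99 (limma adjusted p = 0.0022). Col3a1 differed by 1.08 (adjusted p = 0.22), and the Col1a2 call was lost without E15.5 replicate 2 (1.43, adjusted p = 0.058) or E17.5 replicate 1 (1.44, adjusted p = 0.091). Of the mesenchymal markers 13 of 14 tested, of the endothelial markers 12 of 12 and of the macrophage markers 9 of 16 rose over the same step. The part of these markers in the result was not tested.

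From E17.5 to P0, 6 of 45 members rose and none fell, where 6.21% of all probes were called (3.81% higher, 2.4% lower), with medians of 0.33 and -0.00. Col12a1, a fibril-associated chain, read 6.79, 5.84 and 5.55 at E17.5 and 7.78, 7.88 and 7.85 at P0, a rise of 1.78 ± 0.23 (limma adjusted p = 1.3e-06). Its second probe differed by 0.78 at this step (9.58 to 10.36, not called) and had risen by 2.90 at the step before, from 6.68. Lama2, the laminin alpha chain of muscle and Schwann cells, rose by 1.26, Lamb2 by 1.17 and Col16a1 by 1.16, beside Col5a3 (1.16) and Col13a1 (1.12). Without E17.5 replicate 3 only Col12a1 remained, Lama2 then at 0.88 (adjusted p = 0.11) and Lamb2 at 1.13 (adjusted p = 0.052). Without E17.5 replicate 2, Lamb2 was 0.78 (adjusted p = 0.16) and Col5a3 0.76 (limma adjusted p = 0.077). Over the same step 5 of 9 acinar, 3 of 16 macrophage, 2 of 14 mesenchymal and 2 of 6 duct markers tested rose. No marker of these lists fell, and their part in the result was not tested.

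Between P0 and P15 most of the tested collagen and laminin chains fell in beta cells. Of the 45 members, 34 fell and 1 rose, where 25.5% of all probes were called (11% higher, 14.5% lower). The member median was -2.91 and that of all probes 0.12. Fibrillar collagens fell in 8 of 10 with a median of -5.58, collagen VI in 3 of 3 with a median of -7.27, collagen IV in 4 of 5 with a median of -2.91, and laminins in 8 of 10 with a median of -3.00. The remaining collagens followed them, with 5 of 9 fibril-associated chains lower and 1 higher, and both multiplexins and all 3 transmembrane chains lower.

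Col5a2, which joins type I fibrils, went from 12.57, 12.97 and 12.99 to 6.20, 5.19, 4.41 and 4.97. The fall was 7.65 ± 0.42 (limma adjusted p = 8.4e-18). Col6a1 went from 12.85, 13.16 and 13.19 to 6.95, 5.24, 5.30 and 5.70, and Col6a2 from 13.27, 13.30 and 13.41 to 7.19, 5.46, 4.87 and 5.66. The groups lay at least 5 units apart, and replicate 1 of P15 was the highest of its group in all 3 chains. Col3a1 fell by 7.26 ± 0.62 to 9.47, 5.66, 5.87 and 6.12, and Col1a1 fell by 6.11 ± 0.57 to 9.27, 6.89, 5.67 and 6.82. Here too replicate 1 stood above the others, by over 2 units, and without it the differences were -8.16 for Col3a1 and -6.81 for Col1a1.

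Among the laminin chains, Lamb1 went from 12.86, 12.79 and 12.92 to 7.94, 7.98, 7.49 and 8.75, a fall of 4.82 ± 0.26 (limma adjusted p = 2.7e-18). Lama4 and Lamc1 fell too, with differences of -5.78 and -3.20. Col4a1 went from 13.89, 13.78 and 13.65 to 10.75, 10.28, 10.93 and 11.48, and stayed above the linear 100 on every array. Col19a1 was the exception to the falls: it rose by 2.21 ± 0.29 (limma adjusted p = 4.1e-08), from 5.70, 6.55 and 6.32 to the P15 values above.

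Markers of other cell types fell in the same step. All 14 mesenchymal markers tested and all 12 endothelial markers were lower at P15 than at P0, as were 14 of 16 macrophage markers. Dcn, a proteoglycan of fibroblasts, went from 13.53 to 5.45, Postn from 13.38 to 5.48 and the receptor Pdgfra from 11.05 to 4.73. The part of the mesenchymal, endothelial and macrophage markers in the result was not tested.

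**Figure D3:**
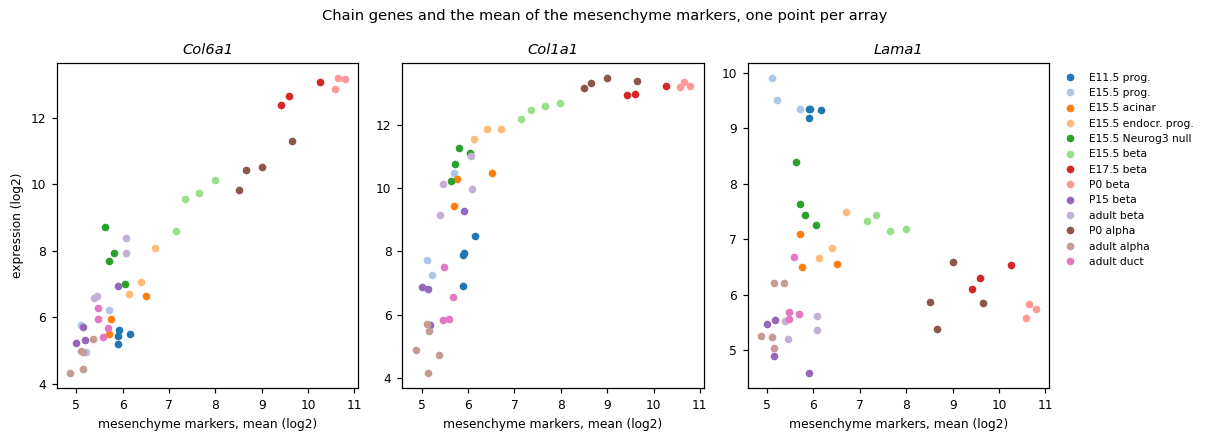
Log2 signal of Col6a1, Col1a1 and Lama1 against the mean log2 signal of 15 mesenchymal markers, with 1 point per array coloured by population. Col6a1 follows the marker mean across the populations, and Lama1 is highest where the marker mean is low. Col1a1 is at 11.77 in endocrine progenitors, where the marker mean is 6.41 and 7 of the 15 markers have means above the linear 100.

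From P15 to adult beta cells 20 of 45 members rose and 2 fell, where 7.81% of all probes were called (6.23% higher, 1.58% lower), with medians of 0.68 and -0.08. Lama4 rose from 6.83, 5.76, 6.06 and 6.69 to 9.58, 9.50, 9.02 and 8.75, by 2.88 ± 0.36 (limma adjusted p = 4.8e-08). Col6a2 rose by 3.13 to 9.07, 7.06, 10.04 and 9.51, and Col1a1 by 2.91 to 9.97, 9.16, 11.02 and 10.13. For both, the lowest adult array lay under the P15 replicate 1 array, so the groups overlapped. Without that array the rises were 3.59 for Col6a2 and 3.61 for Col1a1.

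Col14a1, a fibril-associated chain, rose by 2.64 ± 0.41. Col19a1 fell by 1.93 ± 0.27, back to 6.39, 6.90, 6.85 and 5.73. Col25a1 fell by 1.20, a call that was lost without P15 replicate 1 (-0.87, limma adjusted p = 0.092). Of the macrophage markers 15 also rose over this step, from a list mean of 7.52 to 11.11, while the mesenchymal mean was 5.31 at P15 and 5.75 in adults. The part of these markers in the result was not tested.

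Adult beta cells remained far below P0 beta cells, and so did adult alpha cells below P0 alpha cells. In beta cells 34 of 45 members fell and none rose, where 24.7% of all probes were called (10.8% higher, 13.9% lower), with a member median of -2.67 and an all-probe median of 0.05. In alpha cells 27 fell and 2 rose, where 20.8% of all probes were called (7.71% higher, 13.1% lower), with medians of -1.71 and 0.04. Col5a2, Col6a1, Col5a1 and Col3a1 fell the most in beta cells, with differences of -6.10, -5.68, -5.67 and -5.15. Col3a1, Col1a1, Col5a2 and Col14a1 did so in alpha cells, with -8.46, -8.36, -6.85 and -6.65.

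In alpha cells Col1a1 fell by 8.36 ± 0.50 (limma adjusted p = 6.8e-17) to a mean of 4.98, under the linear 100, and by 6.51 on its second probe. Col1a2 fell by 3.31 ± 0.44, from 13.38, 12.10, 12.53 and 12.72 to a mean of 9.37, and by 4.95 on its second probe. Lamb1 fell by 6.44 ± 0.23 (limma adjusted p = 1.5e-23). Lama2 held 10.40, 9.66, 9.68 and 9.60 at P0 and 9.70, 10.15, 8.76, 8.96 and 8.41 in adults, and the groups overlapped, with a difference of -0.64 that was not called. The 2 chains that rose were Col26a1, by 1.44 ± 0.26, and Col20a1, by 1.35 ± 0.19, the latter from 7.41, 7.72, 7.62 and 7.43. Of the mesenchymal markers 14 of 14 tested fell in beta and 13 of 14 in alpha cells, and all 12 endothelial markers fell in both. Of the macrophage markers 9 of 16 rose and none fell in beta cells, and 11 of 16 fell and none rose in alpha cells. The part of these markers in the result was not tested.

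**Figure D4:**
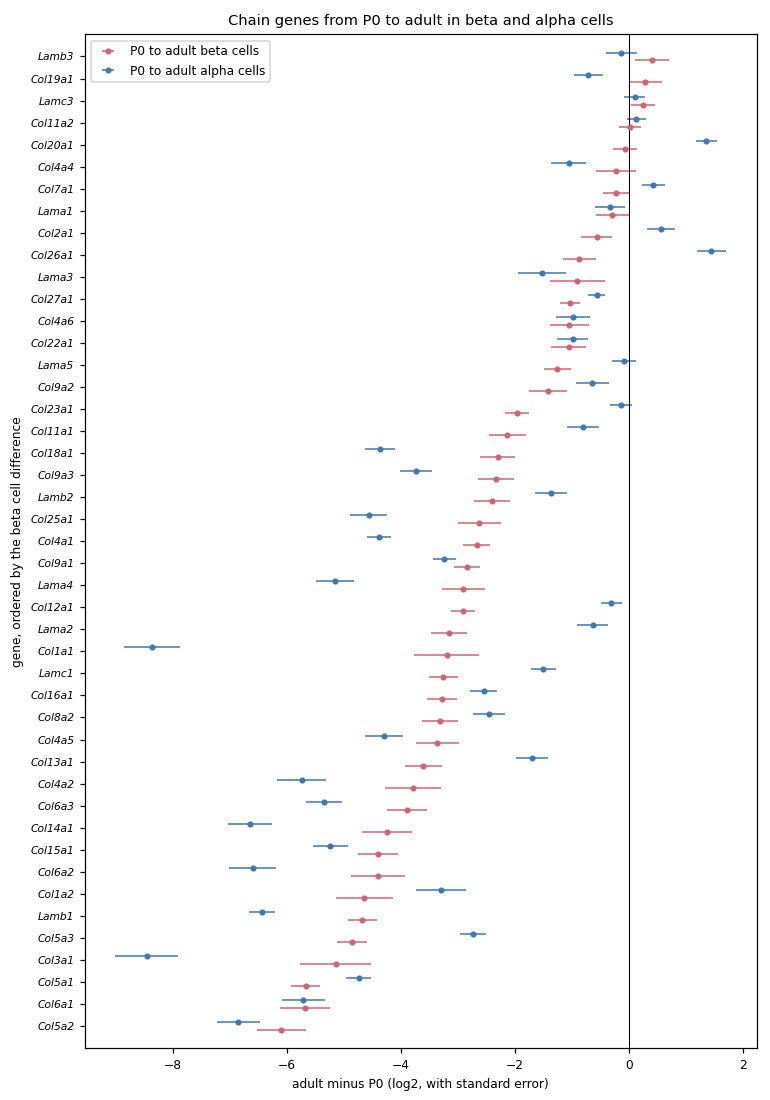
Adult minus P0 difference (log2, with SE) of the 45 tested chains in beta cells and in alpha cells. Most chains lie below 0 in both. The Col1a1 point is the brightest of its probes (-8.36 in alpha and -3.20 in beta cells), and its second probe, not drawn, had -6.51 and -5.98.

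The adult minus P0 changes of the cell types were then compared with each other. In a test of the alpha change minus the beta change, 25 of 45 members were called, 13 with the more negative change in alpha cells and 12 with the more negative change in beta cells, where 20.7% of all probes were called (9.78% positive, 10.9% negative). The member median was -0.03 and that of all probes 0.02. Col1a1 had -5.16 on its brightest probe, with changes of -3.20 in beta and -8.36 in alpha cells. Its second probe had changes of -5.98 and -6.51, and their difference of -0.53 was not called (limma adjusted p = 0.55). Col3a1 had -3.31 and, on its second probe, -2.21, both called. Col14a1 (-2.41) and Lama4 (-2.25) were called in the opposite direction on other probes, with 1.18 and 2.14 for Col14a1 and 1.52 for Lama4. On the other side were Col12a1 (2.60), Lama2 (2.52), Col26a1 (2.31) and Col5a3 (2.12). In this test all 16 macrophage markers were called negative, and of 6 duct cell markers 4 were negative and 1 positive. Of 12 endothelial markers 6 were positive, as were 6 of 14 mesenchymal markers, with none negative. The part of these markers in the result was not tested.

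The alpha and beta cells were also set against each other at each age. At P0, 24 of 45 members were lower in alpha cells and 1 higher, where 19.8% of all probes were called (8% higher, 11.8% lower), with medians of -1.06 and -0.01. Lamb2 differed by -2.69 ± 0.31 (limma adjusted p = 7.1e-09), 9.02, 7.58, 7.90 and 8.26 against 10.75, 10.96 and 10.95. Col5a3, Col6a1 and Lamc1 were lower too, with differences of -2.64, -2.55 and -2.46. Col25a1 was higher in alpha cells by 1.71 ± 0.37, and Col1a1 differed by 0.08, which was not called, although its second probe was lower in alpha cells (11.86 against 13.78, limma adjusted p = 0.0012). The mesenchymal mean was 10.67 in P0 beta and 8.95 in P0 alpha cells, and 8 of 12 endothelial and 15 of 16 macrophage markers were lower in alpha cells. The part of these markers in the result was not tested. The call of Col1a2 was lost without any beta array or alpha replicate 2, 3 or 4 (-1.03 to -1.27, limma adjusted p of 0.064 to 0.12), and that of Col4a2 without beta replicate 1 or 2 or alpha replicate 2 or 3 (-1.17 to -1.35, adjusted p of 0.053 to 0.072).

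In adults, 20 members were lower in alpha cells and 2 higher, where 17.2% of all probes were called (6.22% higher, 11% lower), with medians of -0.71 and 0.03. Col1a1 was lower, with a difference of -5.09 ± 0.50 (limma adjusted p = 5.5e-11) and of -2.46 on its second probe, and so were Col3a1 (-3.95), Col6a2 (-3.87) and Lama4 (-3.47). Col1a2 differed by 0.12 (limma adjusted p = 0.85). Lama2 was higher in alpha cells by 1.46 ± 0.28, the beta arrays reading 7.61, 7.31, 8.26 and 7.75, all below the alpha arrays, and Col26a1 was higher by 1.42. All 16 macrophage markers tested were lower in adult alpha than in adult beta cells. So were 7 of 9 acinar, 5 of 6 duct, 4 of 14 mesenchymal and 3 of 12 endothelial markers, with none higher. The part of these markers in the result was not tested.

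Adult duct cells were high in several laminin chains. Against E15.5 progenitors 6 of 45 members were higher and 14 lower, where 33.4% of all probes were called (16.1% higher, 17.4% lower), with medians of -0.34 and -0.11. Lama3 was higher by 3.86 ± 0.47 (limma adjusted p = 6.2e-09), at 6.95, 9.11, 9.50 and 7.63 against 4.53, 4.40 and 4.38 in progenitors. Col4a4 was higher by 3.44 ± 0.35, Lama4 by 3.37 ± 0.38 at 11.75, 12.11, 12.27 and 12.27, and Col14a1 by 1.49. Lamb3 was higher too, and lost its call without duct replicate 3, where its difference was 0.94. For Lama3, Lama4 and Col4a4 each duct array lay above each progenitor array.

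Col9a1 was lower in duct cells, with a difference of -6.83 ± 0.23 (limma adjusted p = 1.7e-24), and so were Col2a1 (-5.58), Lama1 (-3.70) and Lamb1 (-3.29). The duct arrays of Lamb1 read 9.23, 9.88, 10.37 and 9.29, all above the linear 100. The calls of Col1a1, Col5a2, Col1a2 and Col11a1 rested on progenitor replicate 2: without it the differences were -1.05 (adjusted p = 0.11), -0.72 (0.18), -0.34 (limma adjusted p = 0.58) and -0.93 (0.023, under the difference of 1). The macrophage list mean was 11.38 in duct cells and 5.88 in E15.5 progenitors, and 9 of 12 endothelial markers were higher in duct cells and none lower. Their part in the result was not tested.

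Against adult beta cells, 17 members were higher in duct cells and 12 lower, where 32.3% of all probes were called (16.4% higher, 15.9% lower), with medians of 0.26 and -0.01. Of the laminin chains 7 of 10 and of the collagen IV chains 4 of 5 were higher, and all 3 collagen VI chains were lower. Col4a5 was higher by 3.69 ± 0.35 (limma adjusted p = 9.2e-12), at 10.12, 10.45, 10.06 and 9.15 against 5.62, 6.54, 6.65 and 6.21. Col9a3 was higher by 3.54, Lama4 by 2.89 and Lama5 by 2.82, the last at 11.62, 11.49, 11.93 and 11.82 against 9.20, 8.64, 8.99 and 8.77. None of these chains overlapped between the groups.

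Col6a3 was lower in duct cells, with a difference of -3.73 ± 0.33, and so were Col1a1 (-3.64, and -1.78 on its second probe), Col6a2 (-3.14) and Col1a2 (-3.02). The Lama3 call was lost without duct replicate 3 (1.02, limma adjusted p = 0.052). The macrophage mean was 11.11 in beta and 11.38 in duct cells, and the endothelial mean was 6.02 and 7.19, with 6 of 12 endothelial markers higher in duct cells and none lower. Their part in the result was not tested.

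**Figure D5:**
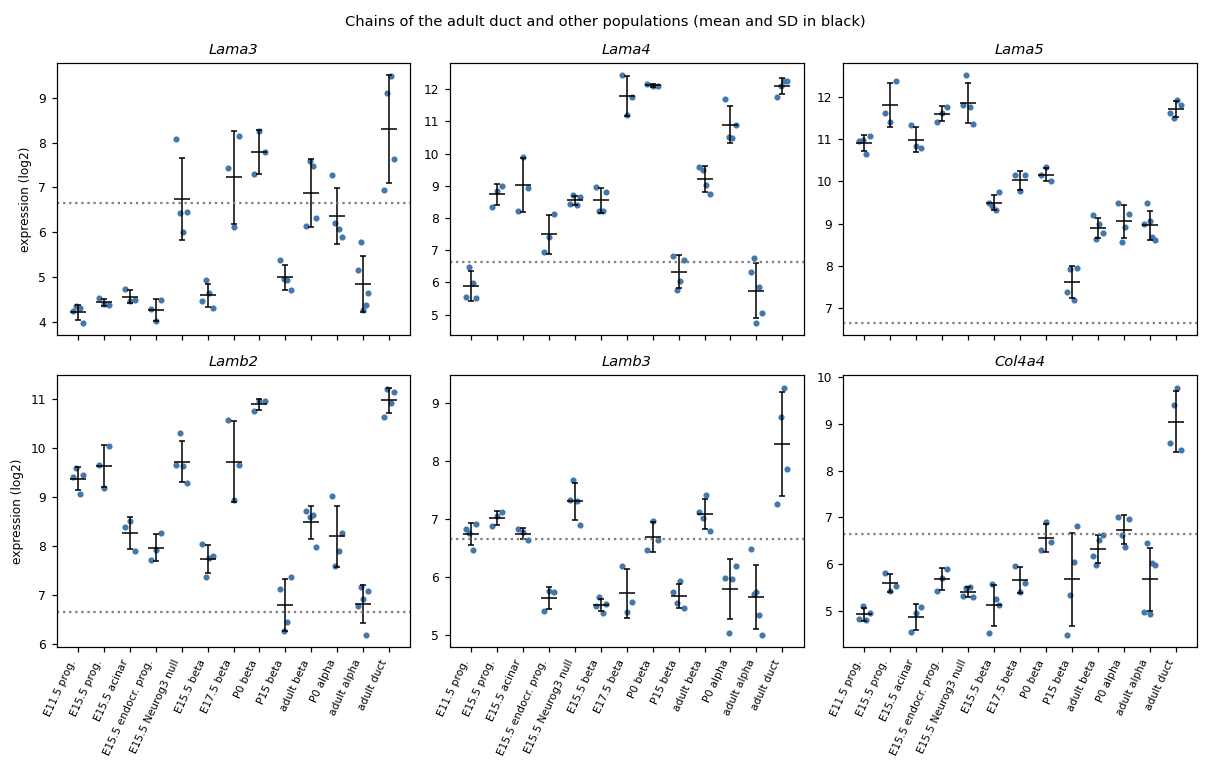
Log2 signal of Lama3, Lama4, Lama5, Lamb2, Lamb3 and Col4a4 on every array (dots) with the population mean and SD in black and the linear value of 100 as a dotted line. Duct cells have the highest population mean of Lama3, Lamb2, Lamb3 and Col4a4, with the Lamb2 mean of 10.96 close to that of P0 beta cells at 10.88.

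Genes that process, anchor, bind or cut the matrix were followed through beta cell development beside the chains. Of 24 genes of collagen processing and crosslinking, 12 rose and none fell between E15.5 and E17.5, led by Lox (1.97), Sparc (1.80) and P3h2 (1.58). Over that step 7.3% of all probes were called higher and 2.51% lower. Between P0 and P15, where 14.5% of all probes were called lower and 11% higher, 16 fell and none rose. They were led by Lox (-7.67), Loxl1 (-5.73) and Serpinh1 (-5.32), the collagen chaperone. Of 13 basement membrane partners, 10 fell and 1 rose over the second step, led by Nid1 (-6.77), Fn1 (-6.43) and Nid2 (-6.15). Of 12 receptors, 5 fell, led by Ddr2 (-5.09), Itga1 (-5.05) and Bcam (-1.71). Of 14 proteases and inhibitors, 10 fell, led by Mmp2 (-6.36), Timp3 (-5.57) and Mmp23 (-5.13). From P15 to adult beta cells 6.23% of all probes were called higher and 1.58% lower. Of the lists, 3 of 24 processing genes, 3 of 13 partners, 2 of 12 receptors and 6 of 14 proteases and inhibitors rose, and 1 partner fell.

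Against adult beta cells, in duct cells 5 of 12 receptors were higher and none lower, led by Itgb4 (2.10), the hemidesmosome integrin, Bcam (1.69) and Itga1 (1.56). In this comparison 16.4% of all probes were called higher and 15.9% lower. Itgb4 was also higher in Neurog3-null cells than in endocrine progenitors, by 2.38. Of 14 proteases and inhibitors 9 were higher in duct than in beta cells and 1 lower, led by Mmp9 (5.02), Timp3 (3.80) and Mmp13 (2.87).

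Over the 13 population means, many collagen chains that assemble with each other or lie in the same fibrils ran together, as did Lamb1 with Lamc1. Pearson's r was 0.98 for Col1a1 with Col3a1 and for Col6a1 with Col6a2, 0.95 for Col4a1 with Col4a2, Col5a1 with Col5a2 and Col6a1 with Col6a3, 0.91 for Lamb1 with Lamc1, 0.82 for Col1a1 with Col1a2 and 0.78 for Col4a5 with Col4a6. It was lower for Col9a2 with Col9a3 (0.56) and Lama3 with Lamb3 (0.48), and -0.14 for Col11a1 with Col11a2. Other laminin alpha chains had lower values too. These were 0.73 for Lama5 with Lamc1, 0.63 for Lama5 with Lamb1 and with Lamb2, 0.58 for Lama1 with Lamb1 and 0.41 for Lama4 with Lamb1. With the mean of the mesenchymal markers, r was 0.96 for Col6a1, Col5a2 and Col14a1, 0.80 for Col1a1, -0.22 for Lama1 and -0.31 for Col2a1. Col15a1 had r = 0.96 with the endothelial mean and Lama3 r = 0.88 with the macrophage mean. These are descriptions over 13 means that share arrays and normalisation, and no test was made of them.

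Col22a1, a fibril-associated chain, was highest in E11.5 progenitors (8.02) and lowest in adult beta cells (4.98). Col23a1, a transmembrane chain, was highest in E17.5 beta cells (8.05) and lowest in adult beta cells (5.64).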

How the data were processed

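RNA of 48 sorted samples in 13 populations was amplified and hybridised to Affymetrix arrays by the authors, who deposited log2 values normalised by RMA in R (version 2.11.1, per the submitters' processing notes). Samples were grouped by title and genotype labels. Probes over a linear 100 on at least 1 array were kept (32043 of 45101). A linear model over all 13 populations was fitted with limma (3.58.1, R 4.3.3), with Benjamini-Hochberg adjustment over all kept probes, and calls needed an adjusted p under 0.05 and a 2-fold difference. RMA brings all arrays to one distribution, so differences are relative to the other genes on an array. Means rest on the 3 to 5 arrays of a population, and the spread of a probe was estimated within all 13 populations together. The model was tested on simulated data. Members and gene lists were chosen with earlier results of these data known. Every member is named at least once, with up to 4 called members of each direction per comparison and up to 3 genes per list. Alternatives were other filters, probes, scalings, array weights, fits on the compared populations only, the methods' t-test, a replicate block and leaving out each array. Deviations of same-numbered arrays correlated above 0.1 in every pair only between E11.5 and E15.5 progenitors (r of 0.11 to 0.15 in 3 of 3 pairs). There the same number was the best match for 4 of 6 arrays, and for 5 of 6 between P0 and adult beta cells. These low values do not show that the numbers pair samples. No authors' fold changes were used.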

Additional observations from a re-analysis of the deposited data

Results flagged for a closer look

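The change from P0 to adult differed between alpha and beta cells for 25 members in a limma test of the difference (alpha change minus beta change). The fall was larger, or the rise smaller, in alpha cells for 13. The values were -5.16 for Col1a1, -3.31 for Col3a1, -2.41 for Col14a1, -2.25 for Lama4, -2.19 for Col6a2, -2.06 for Col18a1, -1.96 for Col4a2, -1.94 for Col25a1, -1.76 for Lamb1, -1.71 for Col4a1, -1.45 for Col6a3, -1.40 for Col9a3 and -1.00 for Col19a1. For Col14a1, Lama4 and Lamb1 another probe was called in the opposite direction. The second probe of Col1a1 had -0.53 and was not called (limma adjusted p = 0.55). In the same test all 16 macrophage markers were negative, and 6 of 12 endothelial and 6 of 14 mesenchymal markers positive. The part of these markers in the result was not tested.

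The values on the other side were 1.04 for Lamb2, 1.13 for Col2a1, 1.17 for Lama5, 1.32 for Col11a1, 1.42 for Col20a1, 1.75 for Lamc1, 1.82 for Col23a1, 1.90 for Col13a1, 2.12 for Col5a3, 2.31 for Col26a1, 2.52 for Lama2 and 2.60 for Col12a1. The calls of Lamb2 and Col19a1 were lost without single arrays, for example without P0 beta replicate 1 (1.10 with adjusted p = 0.059 and -0.76 with adjusted p = 0.16, limma). That of Col11a1 was lost without P0 alpha replicate 2 (1.01, limma adjusted p = 0.050).

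Only 27 chains were searched for single arrays whose gap to the next array was large for the range of their group. This held in 17 of 216 groups of 4 or 5 arrays, where chance gives about 1 in 20. In a tight group such a gap can be small. In embryonic cells the arrays so found were Col4a1 in E11.5 replicate 4 (11.72, the others at 11.79 to 11.81) and Lama1 in E11.5 replicate 3 (9.18, the others at 9.33 to 9.35). Further ones were Col15a1 in Neurog3-null replicate 4 (7.41), and Col25a1 (8.61) and Col8a2 (8.02) in E15.5 beta replicate 1. In P0 alpha replicate 1 they were Col6a2 (12.31) and Lama2 (10.40), and in P15 beta replicate 1 Col3a1 (9.47). In adult cells they were Col7a1 (6.23) and Col9a3 (6.07) in beta replicate 4, Col8a2 in beta replicate 1 (4.27), Col26a1 in alpha replicate 5 (6.99), Col4a2 in alpha replicate 2 (7.06) and Col9a1 in alpha replicate 1 (5.38). In duct cells they were Col25a1 in replicate 1 (3.94), Col26a1 in replicate 2 (5.49) and Lama1 in replicate 4 (6.68).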

How the results depend on the processing

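Of 6311 values recomputed for the 360 called member differences, 5967 kept their direction and side of the thresholds, 343 kept the direction but not the call, and 1 reversed. The reversal was Col14a1 in the difference of alpha and beta maturation, which was 0.30 (limma adjusted p = 0.50) with the mean of all its probes. Counts of members called moved by over 1.5 times in these cases. Requiring a linear 100 on 24 arrays, which tests fewer members, gave 6 between E11.5 and E15.5 progenitors, 6 in Neurog3-null cells, 3 from E17.5 to P0, 13 in duct cells against progenitors and 16 in the difference of maturation. Fitting only the compared populations gave 1 from E17.5 to P0. The methods' t-test with adjustment gave 0 from E17.5 to P0, with 9 members at an unadjusted p under 0.05, and 9 from P15 to adult beta cells. Beyond the fewer members tested under the stricter filter, the cause was not tested.

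Leaving out 1 array at a time gave 10 to 12 calls for E11.5 to E15.5 progenitors, 17 to 24 for acinar cells, 22 to 25 for endocrine progenitors, 12 to 14 for Neurog3-null cells and 17 to 21 for E15.5 beta cells. It gave 22 to 24 for E15.5 to E17.5, 1 to 9 for E17.5 to P0 (lowest without E17.5 replicate 3), 34 to 36 for P0 to P15, 21 to 23 for P15 to adult and 31 to 34 for P0 to adult beta cells. It gave 28 to 32 for alpha cells from P0 to adult, 20 to 27 for P0 beta to alpha, 20 to 23 for adult beta to alpha, 17 to 22 for progenitors to duct, 27 to 30 for beta to duct and 23 to 25 for the difference of maturation. With the replicate number as a block the counts were 10 for E11.5 to E15.5 progenitors, 20 for acinar cells and 12 for Neurog3-null cells. They were 34 for P0 to P15 and 23 for the difference of maturation, and no count moved by over 1.5 times. Centring array medians shifted the median of all probes by over 0.1 only for P0 to P15 (0.117), P0 to adult alpha (0.113) and adult beta to adult alpha (0.115).

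Signals near or under the linear 100 have sizes that are not exact. Replicates are few, and 1 array can carry a call, as with E15.5 progenitor replicate 2 and P15 beta replicate 1. Sorted samples held varying levels of mesenchymal, endothelial, macrophage, acinar and duct cell transcripts, whose part in the results was not tested. The lowest array weights were those of adult alpha replicates 2 (0.13) and 1 (0.16) and P15 beta replicate 1 (0.17).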
